A study of Mus musculus with 9 samples.

Results

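The eotaxins Ccl11 and Ccl24 and the type 2 CC chemokines Ccl17, Ccl22 and Ccl8 were followed across 4 myeloid cell populations sorted from inflamed mouse lung. They were taken by name, as all probe sets whose single gene symbol is one of the 5, which gave 5 probe sets, 1 per gene, of 34945 probe sets with 1 symbol, or 5 of 18193 genes. Ccl17 and Ccl8 were far lower on macrophage-labelled arrays than on T2M-, eosinophil- and neutrophil-labelled arrays. Ccl24 was lower on T2M-labelled than on neutrophil-labelled arrays, and Ccl17 lower on eosinophil- than on neutrophil-labelled arrays. Each of these calls ended under 16 of 22 alternative fits. Ccl11 and Ccl22 passed no test in the main fit, though some of their differences passed under alternatives. A T2M (type 2 myeloid) cell is a granular myeloid cell that makes IL-4 and IL-13.

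All cells came from lungs of female 4get mice on the BALB/c background, 6 to 8 weeks old, in which a green fluorescent reporter marks expression of Il4. Every mouse, in all groups, had received 0.5 µg of recombinant IL-25, in 50 µL into the trachea once a day for 4 days, and the series used here holds no untreated lung. CD11b-enriched cells of 4 donor mice were pooled per replicate, and 400000 cells per population were sorted on the reporter, the IL-5 receptor alpha chain, F4/80, MHC class II, CD11b and Gr-1. There were 3 arrays labelled T2M (reporter-positive, IL-5 receptor alpha-negative, F4/80-positive, Gr-1 intermediate), and 2 arrays each for the other populations, which were reporter-negative. The eosinophil gate was IL-5 receptor alpha-positive, F4/80-negative and Gr-1-high, the neutrophil gate IL-5 receptor alpha-negative, F4/80-negative and Gr-1-positive, while cells of the macrophage gate carried F4/80 and MHC class II but no Gr-1.

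Chemokines are small secreted proteins that steer leukocytes through G protein-coupled receptors, and CC chemokines are named for a pair of adjacent cysteines. In type 2 inflammation of the lung, IL-4 and IL-13 act through the transcription factor STAT6 and raise several of these genes in macrophages, dendritic cells and structural cells. CCL11 (eotaxin) and CCL24 (eotaxin-2) draw eosinophils through CCR3, CCL17 and CCL22 draw Th2 cells through CCR4, and mouse CCL8 acts on CCR8.

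The upstream sequences of Ccl17, Ccl22 and Ccl8 are shown because only these members had a sequence available. They are from RefSeq (GRCm38.p6, plus strand, 5′ to 3′), which the promoter table gave for 3 of the 5 genes, and each is the 250 bases before the start site of the table's transcript, which for Ccl17 lies inside the gene's annotated span. Motif matches are in capitals, all other bases in lower case.
Ccl17, chr8:94810203-94810452: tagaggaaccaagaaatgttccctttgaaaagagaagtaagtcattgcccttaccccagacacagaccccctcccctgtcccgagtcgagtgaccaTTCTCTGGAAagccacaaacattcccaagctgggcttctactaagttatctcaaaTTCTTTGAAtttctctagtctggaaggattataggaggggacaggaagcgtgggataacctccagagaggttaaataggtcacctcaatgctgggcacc
Ccl22, chr8:94745434-94745683: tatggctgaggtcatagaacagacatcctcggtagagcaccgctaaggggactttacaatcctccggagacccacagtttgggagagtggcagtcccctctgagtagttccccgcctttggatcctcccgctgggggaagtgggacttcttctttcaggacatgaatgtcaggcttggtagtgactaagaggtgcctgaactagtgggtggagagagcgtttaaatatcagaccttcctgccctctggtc
Ccl8, chr11:82114935-82115184: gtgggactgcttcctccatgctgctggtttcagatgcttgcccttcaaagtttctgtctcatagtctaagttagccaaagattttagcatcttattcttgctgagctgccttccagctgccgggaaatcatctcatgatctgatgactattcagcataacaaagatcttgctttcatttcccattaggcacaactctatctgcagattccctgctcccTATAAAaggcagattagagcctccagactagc

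The search covered both strands for 4 motifs. The STAT motif is the triplet TTC, then any bases, then the triplet GAA, with 4 bases between the triplets in the spacing that STAT6 prefers and 3 in the general STAT spacing. The others were the TATA box (TATAAA) and the kappaB consensus, which NF-kappaB binds. Ccl17 held TTCTCTGGAA from 154 to 145 bases before its start and TTCTTTGAA from 99 to 91 bases before it. The 2 matches do not overlap. Of 32851 promoter windows of the same length in the table, 5.85% held the 4-base spacing and 7.02% the 3-base spacing. Ccl8 held TATAAA from 32 to 27 bases before its start, as did 12.4% of all windows somewhere. The kappaB consensus, found in 7.25% of windows, was in none of the 3, and Ccl22 held none of the 4 motifs. These matches describe letters only.

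Expression was read as log2 values per probe set, where a difference of 1 is 2-fold, and array medians over all probe sets ran from 5.48 to 5.68. Replicate arrays correlated at 0.932 to 0.970 for T2M, 0.951 for eosinophils, 0.915 for neutrophils and 0.994 for macrophages, so that whether the last pair holds separate pools cannot be told from the values. Neutrophil replicate 2 stood apart, with correlations of 0.954 and 0.953 with the macrophage-labelled arrays. Cell type markers went against several labels. Of eosinophil markers, 4 of 7 were called higher in T2M than in eosinophil-labelled arrays, where 1.57% of all genes were higher. Of neutrophil markers 7 of 10 were called higher in eosinophil- than in neutrophil-labelled arrays, where 3.55% of all genes were higher. The dendritic cell genes Flt3 and Zbtb46 stood at 8.35 ± 0.19 and 9.27 ± 0.31 (SD, n = 2) on macrophage-labelled arrays, with 3.80 and 3.25 less on the log2 scale on T2M-labelled arrays. Of 12 dendritic cell markers, 4 were called lower in T2M than in macrophages, 1 higher and 7 not called. In that comparison 10.6% of all genes were lower and 6.53% higher. The complement gene C1qc, a macrophage marker, was at 11.36 ± 0.73 (SD, n = 2) on neutrophil-labelled arrays, against 7.55 ± 0.38 (n = 2) on macrophage-labelled arrays. Of 12 macrophage and monocyte markers, though, 2 were called higher and 10 not called between these labels, where 1.13% of all genes were higher. Cd68 (11.71 against 12.14), Cx3cr1 (10.04 against 10.58) and Adgre1 (9.66 against 9.76) were lower by value in neutrophils. For this reason each population is referred to by its array label.

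**Figure D1:**
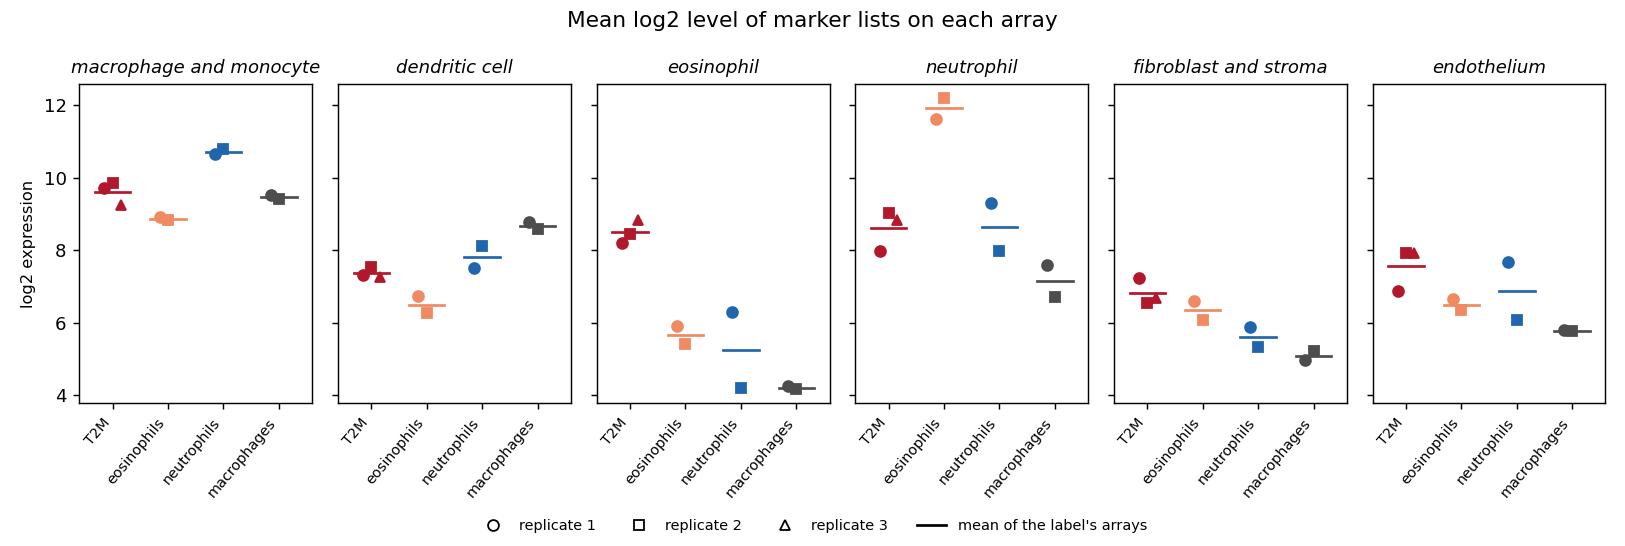
Mean log2 expression over each marker list (one panel per list) on each of the 9 arrays, by label, with a line at the mean of each label. Eosinophil markers are highest on T2M-labelled arrays, neutrophil markers on eosinophil-labelled arrays, macrophage and monocyte markers on neutrophil-labelled arrays and dendritic cell markers on macrophage-labelled arrays.

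Differences were tested with limma over all 18193 genes and all 9 arrays. Genes with a Benjamini-Hochberg adjusted p below 0.05 count as called. Each of the 5 chemokines was compared in 6 pairs of labels, and 8 of these 30 differences were called, 4 for Ccl17, 3 for Ccl8 and 1 for Ccl24. Of all genes, 2.26% to 17.4% were called, depending on the pair. In such sorted bulk samples, fewer expressing cells and less RNA per cell cannot be told apart.

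Between T2M- and eosinophil-labelled arrays, 0 of the 5 chemokines were called (limma), also 0 at an unadjusted p under 0.05 and 0 without moderation of the spread. Of all genes, 4.46% were called there, 1.57% higher and 2.89% lower. The median log2 difference of the 5 was 0.82, against 0.06 for all genes. Between T2M- and neutrophil-labelled arrays 1 of 5 was called, lower in T2M, where 2.82% of genes were called, 1.25% higher and 1.57% lower, and the median was -1.80 against -0.03. Lower genes made up 55.6% of all calls there, and 39.5% after quantile scaling. Between T2M- and macrophage-labelled arrays 2 of 5 were called, both higher in T2M, where 17.2% of genes were called, 6.53% higher and 10.6% lower, with a median of 1.83 against 0.18.

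Between eosinophil- and neutrophil-labelled arrays 1 of 5 was called, lower in eosinophils, where 7.88% of genes were called, 3.55% higher and 4.33% lower, with a median of -2.12 against -0.07. Lower genes were 55.0% of all calls there and 43.4% after median scaling. Between eosinophil- and macrophage-labelled arrays 2 of 5 were called, both higher in eosinophils, where 17.4% of genes were called, 5.89% higher and 11.5% lower, with a median of 0.87 against 0.18. Between neutrophil- and macrophage-labelled arrays 2 of 5 were called, both higher in neutrophils, where 2.26% of genes were called, 1.13% higher and 1.13% lower, with a median of 3.63 against 0.17. Comparisons that name the same label share its arrays, so these counts are not independent of each other.

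**Figure D2:**
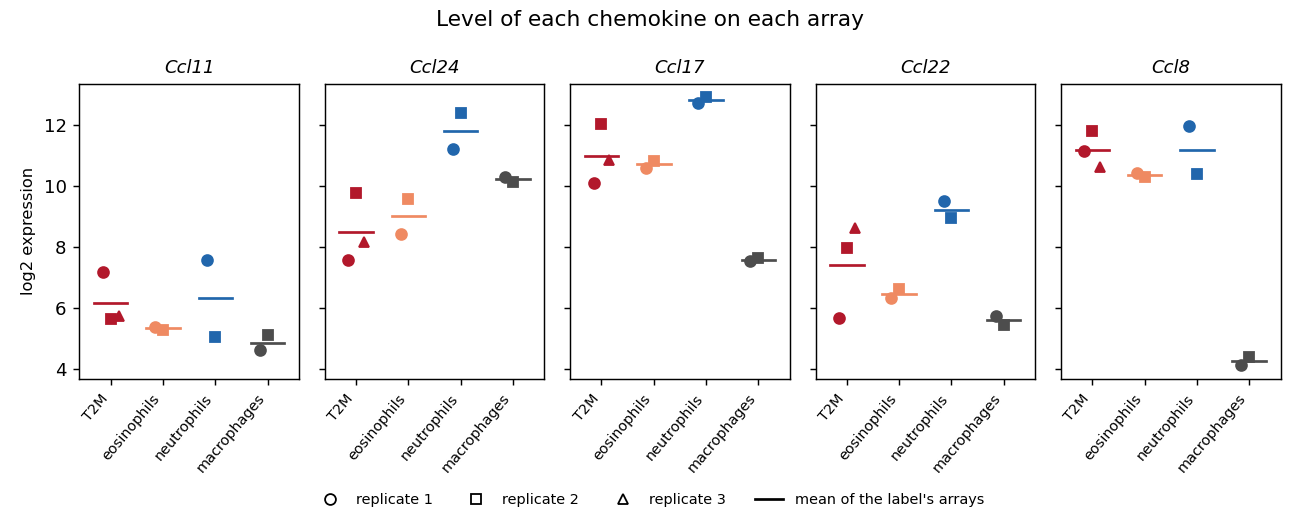
log2 expression of each of the 5 chemokines on each of the 9 arrays, by label, with a line at the mean of each label. Ccl8 and Ccl17 are lowest on the macrophage-labelled arrays, and Ccl24 is highest on the neutrophil-labelled arrays. Of the 5 genes, Ccl22 spreads most within the T2M label and Ccl11 most within the neutrophil label.

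Ccl8, the mouse CCR8 ligand, was at 11.17, 11.81 and 10.63 on the 3 T2M-labelled arrays, at 10.45 and 10.31 on eosinophil-labelled arrays and at 11.98 and 10.40 on neutrophil-labelled arrays. The macrophage-labelled arrays had 4.14 and 4.42, below the medians of those arrays (5.48 and 5.53) and above their lower quartiles (3.93 and 3.98). Every array of the other labels thus lay far above both macrophage-labelled arrays. The T2M mean of 11.20 ± 0.59 (SD, n = 3) stood 121-fold above the macrophage mean of 4.28 ± 0.20 (n = 2), a log2 difference of 6.92 (SE 0.49, adjusted p = 2.22e-04). Eosinophil-labelled arrays were 68.6-fold above macrophage-labelled arrays (6.10, SE 0.53, adjusted p = 3.87e-04). Neutrophil-labelled arrays were 121-fold above macrophage-labelled arrays (6.91, SE 0.53, adjusted p = 7.16e-04). The folds use measured values. The files hold no detection calls, so Ccl8 is not shown to be above background on macrophage-labelled arrays, and if it is background there the folds are lower bounds. These calls stood under all 22 alternatives.

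Among the other labels Ccl8 passed no test. T2M- and eosinophil-labelled arrays did not overlap, yet the difference of 0.82 had an interval of -0.29 to 1.94 (95%, adjusted p = 0.478). T2M and neutrophil-labelled arrays overlapped, with a difference of 0.01 and an interval of -1.11 to 1.12. Eosinophil- and neutrophil-labelled arrays overlapped too, with -0.81 and an interval of -2.03 to 0.41. The order was T2M, neutrophils, eosinophils and macrophages, and only the step to macrophages exceeded the spread.

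Ccl17, a CCR4 ligand also called TARC, was at 10.10, 12.03 and 10.86 on T2M-labelled arrays and at 10.61 and 10.84 on eosinophil-labelled arrays. It reached 12.75 and 12.93 on neutrophil-labelled arrays and only 7.56 and 7.65 on macrophage-labelled arrays. Neutrophil-labelled arrays were thus above all others, and macrophage-labelled arrays below all others. The T2M mean of 11.00 ± 0.98 (SD, n = 3) was 10.5-fold above the macrophage mean of 7.60 ± 0.06 (n = 2), a log2 difference of 3.39 (SE 0.48, adjusted p = 0.00378). That call ended without macrophage replicate 1 (3.35, adjusted p = 0.0515). Eosinophil-labelled arrays were 8.70-fold above macrophage-labelled arrays (3.12, SE 0.53, adjusted p = 0.00601), which ended without macrophage replicate 1 (adjusted p = 0.0558), with the macrophage arrays counted as 1 sample (adjusted p = 0.0526) and with a 2-fold minimum (adjusted p = 0.0501).

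Neutrophil-labelled arrays were 37.8-fold above macrophage-labelled arrays in Ccl17 (5.24, SE 0.53, adjusted p = 0.00231), a call that stood under all 22 alternatives. Eosinophil-labelled arrays were 4.34-fold below neutrophil-labelled arrays (-2.12, SE 0.53, adjusted p = 0.0471). That call ended under 16 of 22 alternatives, among them each of the fits without 1 neutrophil- or 1 eosinophil-labelled array, with adjusted p from 0.0117 to 0.617 and differences from -2.23 to -1.96. T2M-labelled arrays were 1.85 below neutrophil-labelled arrays on the log2 scale without passing (adjusted p = 0.0926). Without T2M replicate 2, which had the highest Ccl17 of its label, that difference was -2.36 (adjusted p = 0.0256). T2M- and eosinophil-labelled arrays overlapped, with a difference of 0.27 and an interval of -0.83 to 1.38.

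Ccl22, the other CCR4 ligand, also called MDC, was at 5.69, 7.99 and 8.63 on T2M-labelled arrays and at 6.33 and 6.63 on eosinophil-labelled arrays. It was at 9.52 and 8.95 on neutrophil-labelled arrays and at 5.75 and 5.45 on macrophage-labelled arrays. Neutrophil-labelled arrays again lay above all others, while T2M replicate 1 lay within the range of the macrophage label. The label means were 7.44 ± 1.54 (SD, n = 3) for T2M, 6.48 ± 0.21 for eosinophils, 9.24 ± 0.40 for neutrophils and 5.60 ± 0.21 for macrophages (n = 2 each).

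None of the 6 differences in Ccl22 passed. The largest was 3.63 for neutrophil- minus macrophage-labelled arrays (12.4-fold, interval 1.79 to 5.48, adjusted p = 0.0645). Eosinophil- minus neutrophil-labelled arrays gave -2.76 (interval -4.61 to -0.91, adjusted p = 0.0779). T2M minus neutrophils gave -1.80, T2M minus macrophages 1.83 and T2M minus eosinophils 0.96, with adjusted p = 0.272, 0.115 and 0.622. The values with T2M rested on T2M replicate 1. Without it, T2M minus eosinophils was 1.83 (adjusted p = 0.0242) and T2M minus macrophages 2.70 (adjusted p = 0.00328). Neutrophils minus macrophages, unchanged at 3.63 (adjusted p = 0.00234), and eosinophils minus neutrophils also passed without it. On that array and on eosinophil replicate 1, the 3′ and 5′ control probe sets of actin differed by 0.61 and 0.54 on the log2 scale, against -0.10 to 0.03 on the other 7. Those of Gapdh differed by 2.35 to 3.43 on T2M-, 1.09 and 2.41 on eosinophil-, 1.45 and 2.20 on neutrophil- and 1.02 and 1.2 on macrophage-labelled arrays. The part of RNA quality in the chemokine values was not tested. Neutrophils minus macrophages in Ccl22 passed under 8 of 22 alternatives, 5 of them other ways of processing. It also passed without T2M replicate 3 (adjusted p = 0.0487) and without neutrophil replicate 2 (3.92, adjusted p = 0.049).

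Ccl24, the CCR3 ligand eotaxin-2, was at 7.60, 9.77 and 8.17 on T2M-labelled arrays and at 8.45 and 9.59 on eosinophil-labelled arrays. It was at 11.24 and 12.42 on neutrophil-labelled arrays and at 10.31 and 10.15 on macrophage-labelled arrays. The T2M- and eosinophil-labelled arrays overlapped and lay below the macrophage-labelled arrays, which lay below the neutrophil-labelled arrays. Its order was thus neutrophils, macrophages, eosinophils and T2M, whereas Ccl8, Ccl17 and Ccl22 had macrophage-labelled arrays last. T2M-labelled arrays had 8.51 ± 1.12 (SD, n = 3), 9.95-fold less than the 11.83 ± 0.84 (n = 2) of neutrophil-labelled arrays, a log2 difference of -3.32 (SE 0.65, adjusted p = 0.0402).

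This call of Ccl24 ended under 16 of 22 alternatives, with differences from -3.94 to -2.72 and adjusted p from 0.0246 to 0.442. It stood without T2M replicate 2 or neutrophil replicate 1, and ended without any other single array, for example without neutrophil replicate 2 (-2.72, adjusted p = 0.134). Eosinophil- minus neutrophil-labelled arrays gave -2.81 (adjusted p = 0.0513), which passed without T2M replicate 1 or 2 and under 4 other ways of processing. T2M minus macrophages gave -1.72 (interval -3.22 to -0.22, adjusted p = 0.102), which passed without T2M replicate 2 and with array weights. Under array weights, 10163 of 18193 genes passed in that pair. Neutrophils minus macrophages gave 1.60 and eosinophils minus macrophages -1.21, with adjusted p = 0.278 and 0.266. T2M minus eosinophils was -0.51 with an interval of -2.01 to 1.00.

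Ccl11, the CCR3 ligand eotaxin, was at 7.18, 5.64 and 5.75 on T2M-labelled arrays, at 5.39 and 5.30 on eosinophil-labelled arrays, at 7.60 and 5.07 on neutrophil-labelled arrays and at 4.64 and 5.11 on macrophage-labelled arrays. The high values were T2M replicate 1 and neutrophil replicate 1, 1 array of each label, and the other 7 arrays lay between 4.64 and 5.75. The label means were 6.19 ± 0.86 (SD, n = 3) for T2M, 5.35 ± 0.06 for eosinophils, 6.33 ± 1.79 for neutrophils and 4.88 ± 0.33 for macrophages (n = 2 each), so that the order was neutrophils, T2M, eosinophils and macrophages with no neighbours past the test. No difference passed, and they ran from -0.99 for eosinophils minus neutrophils to 1.45 for neutrophils minus macrophages (interval -0.36 to 3.26, adjusted p = 0.336). Without neutrophil replicate 1, eosinophils minus neutrophils turned to 0.28 and T2M minus neutrophils, -0.14 over all arrays, to 1.12. Without neutrophil replicate 2, neutrophils minus macrophages was 2.72 (adjusted p = 0.0348), and without neutrophil replicate 1 it was 0.19 (adjusted p = 0.970). With array weights, T2M minus macrophages, 1.31 in the fit without weights, passed too (adjusted p = 0.0359), as 10163 of 18193 genes did there.

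Ccl11 is known from fibroblasts and other structural cells of the lung. The mean log2 level of 8 fibroblast and stroma markers ran from 6.55 to 7.24 on T2M-, 6.07 to 6.60 on eosinophil-, 5.33 to 5.89 on neutrophil- and 4.96 to 5.21 on macrophage-labelled arrays, and was highest on T2M replicate 1. That of 5 endothelial markers was 6.87, 7.93 and 7.91 on the T2M-labelled arrays, lowest on replicate 1, where Ccl11 was highest, and 7.66 and 6.07 on the neutrophil-labelled arrays, highest on replicate 1, where Ccl11 was highest too. It was 6.65 and 6.34 on eosinophil-labelled arrays and 5.79 and 5.77 on macrophage-labelled arrays. Of the fibroblast and stroma list, 5 of 8 were called higher and none lower in T2M than in macrophages, where 6.53% of all genes were higher. The part of such cells in the Ccl11 values was not tested.

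**Figure D3:**
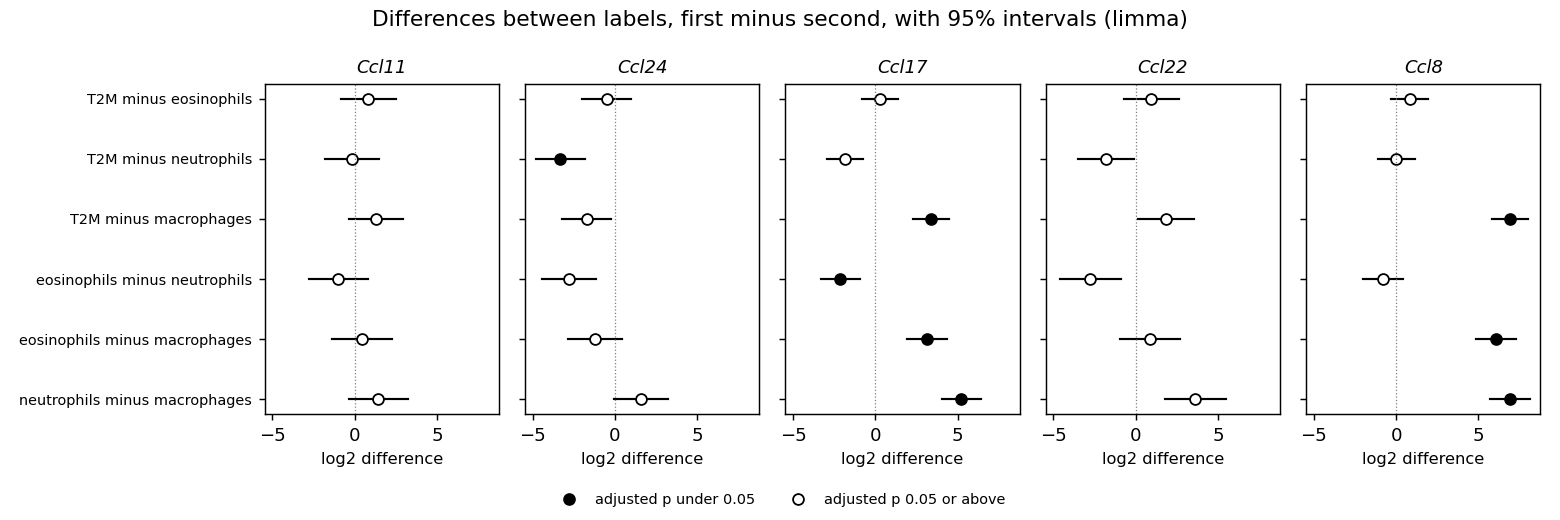
log2 difference of each chemokine for each of the 6 pairs of labels, first label minus second, with the 95% interval of limma. Filled points passed an adjusted p of 0.05, and they are Ccl17 and Ccl8 against macrophages, Ccl17 in eosinophils minus neutrophils and Ccl24 in T2M minus neutrophils.

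Position in the genome grouped part of the chemokines. In the RefSeq annotation (GRCm38.p6), chromosome 11 holds Ccl2, Ccl7, Ccl11, Ccl12, Ccl8 and Ccl1 in this order within 144.2 kb with no other protein-coding gene between them. Ccl11 lies at chr11:82057832-82062955 and Ccl8 at chr11:82115185-82116799. Chromosome 8 holds Ccl22 (chr8:94745684-94751388), Cx3cl1 and Ccl17 (chr8:94809380-94812038) within 66.4 kb, and Ccl24 lies on chromosome 5 (chr5:135569935-135573123).

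Ccl2 and Ccl7, which recruit monocytes through CCR2, and Ccl12, another mouse CCR2 ligand, followed Ccl8 in being lower on macrophage-labelled arrays. Ccl7 was at 10.90, 11.00 and 9.54 on T2M-, 8.89 and 8.56 on eosinophil-, 11.15 and 11.10 on neutrophil- and 4.76 and 4.59 on macrophage-labelled arrays. Its log2 differences from macrophages were 5.80 in T2M, 4.05 in eosinophils and 6.45 in neutrophils (adjusted p = 2.35e-04, 0.00119 and 5.64e-04). For Ccl2 these were 3.62, 2.23 and 4.78 (adjusted p = 4.57e-04, 0.00381 and 5.64e-04), and for Ccl12 5.82, 3.94 and 5.55 (adjusted p = 0.00312, 0.0171 and 0.0145). The calls of Ccl12 in eosinophils and in neutrophils ended under 6 of 22 alternatives each. Ccl12 was at 3.75 and 3.35 on macrophage-labelled arrays, under their lower quartiles (3.93 and 3.98), so its differences are lower bounds if that is background. So 4 of the 6 genes of the cluster, Ccl8 included, were called higher than macrophages in each of the other labels. Among all genes 6.53% were higher than macrophages in T2M, 5.89% in eosinophils and 1.13% in neutrophils.

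Ccl1, a CCR8 ligand at one end of the cluster, ran from 3.34 to 4.79 over the 9 arrays and passed no test, as Ccl11 within the cluster did not. Ccl2 was also called higher in T2M than in eosinophils (1.38, adjusted p = 0.0470) and, with Ccl7, lower in eosinophils than in neutrophils (-2.54 and -2.40, adjusted p = 0.00485 and 0.0195). The Ccl2 call between T2M and eosinophils ended under 15 of 22 alternatives, among them the replicate block and every fit without 1 array except T2M replicate 1 or a neutrophil-labelled array. The Ccl7 call between eosinophils and neutrophils ended under 8 of 22, among them each fit without 1 eosinophil- or neutrophil-labelled array. On chromosome 8, Cx3cl1, the membrane-bound chemokine fractalkine between Ccl22 and Ccl17, passed no test, with means of 6.73 on T2M- and 5.87 on macrophage-labelled arrays, a difference of 0.86 (adjusted p = 0.0538). A gene's place beside Ccl17 or Ccl8 thus went with like differences for some neighbours and not for others.

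**Figure D4:**
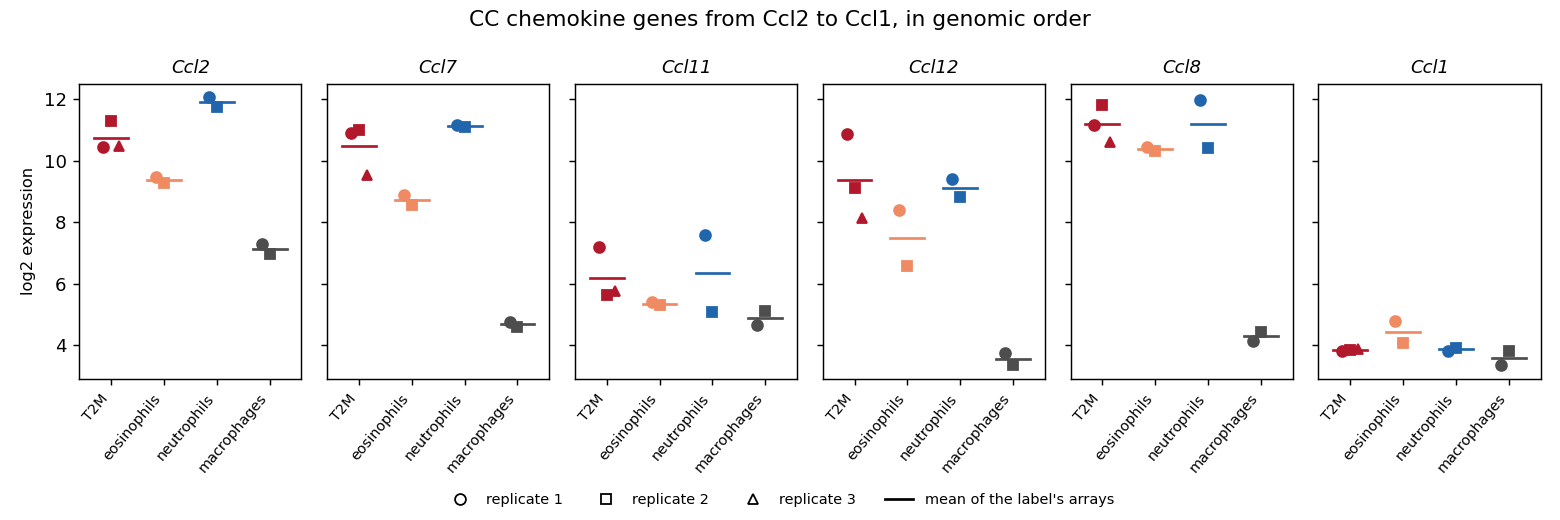
log2 expression of the 6 CC chemokine genes of the chromosome 11 cluster on each array, in genomic order from left to right, with a line at the mean of each label. Ccl2, Ccl7, Ccl12 and Ccl8 are lowest on macrophage-labelled arrays, whereas Ccl11 and Ccl1 passed no test in any pair of labels.

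Likeness between genes was measured as the root mean square difference of their log2 levels over the 9 arrays, each gene centred on its own mean, among 7579 other genes whose label means spanned at least 1. The 3 genes most like Ccl8 were Slc7a2, an arginine transporter (0.59), Pf4, a CXC chemokine (0.71), and Ccl7 (0.84). Those most like Ccl17 were Ccl2 (0.54), the metallothionein gene Mt2 (0.64) and Thbs1, thrombospondin (0.70). Those most like Ccl22 were the syndecan gene Sdc4 (0.65), the matrix proteoglycan gene Vcan (0.79) and Fcrls (0.84). For Ccl24 they were Apoe, a lipid carrier (0.39), the lectin gene Mgl2 (0.53) and Zfp703 (0.60), and for Ccl11 Sparcl1 (0.23), Serping1, the C1 inhibitor (0.24), and Clec14a, known from endothelium (0.26).

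Among the 5 chemokines themselves, the value was smallest for Ccl17 and Ccl22 (0.98) and largest for Ccl24 and Ccl8 (3.37). Slc7a2, the gene most like Ccl8, was 6.97 above macrophages in T2M, 5.15 in eosinophils and 6.92 in neutrophils on the log2 scale. The macrophage mean of Slc7a2 was 3.77, where it is not shown to be above background. Apoe, the gene most like Ccl24, averaged 9.95 in neutrophils, 9.02 in macrophages and 7.28 in T2M and was lowest in eosinophils. Its order was that of Ccl24 but for the last pair, T2M and eosinophils. Both genes were picked for likeness over these same arrays, so their like patterns follow from the selection.

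The receptors of these chemokines followed other orders. Ccr3, the eotaxin receptor, was at 10.58, 9.20 and 9.82 on T2M-labelled arrays, against 5.69 and 4.97 on eosinophil-, 6.81 and 3.79 on neutrophil- and 4.79 and 4.60 on macrophage-labelled arrays. T2M-labelled arrays exceeded eosinophil-labelled arrays by 4.53 on the log2 scale (23.2-fold, adjusted p = 0.0187), neutrophil-labelled arrays by 4.57 (adjusted p = 0.0269) and macrophage-labelled arrays by 5.17 (adjusted p = 0.00501). These calls of Ccr3 ended under 6, 11 and 3 of 22 alternatives, among them the fits without T2M replicate 3 or either eosinophil-labelled array for the first, without T2M replicate 2 or 3 or either macrophage-labelled array for the second, and without either macrophage-labelled array for the third. T2M-labelled arrays were thus above all others in Ccr3. Of its 2 ligands here, Ccl24 was lowest by mean on T2M-labelled arrays, without a call against eosinophil-labelled arrays. Ccl11 averaged 6.19 there, between 6.33 in neutrophils and 5.35 in eosinophils, and passed no test. Ccr4, the CCL17 and CCL22 receptor, ran from 3.97 to 5.38 over the 9 arrays, and Ccr8, the receptor of mouse CCL8, from 2.91 to 3.48. Neither passed a test, and their largest log2 differences were -0.67 for Ccr4, eosinophils minus neutrophils, and 0.17 for Ccr8, neutrophils minus macrophages.

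Ccr1, which binds several inflammatory CC chemokines, was 5.09 higher in T2M than in macrophages, 7.18 in eosinophils and 5.00 in neutrophils (adjusted p = 2.27e-04, 9.31e-05 and 7.92e-04). Ccr2, the receptor of CCL2, CCL7 and CCL12, was 2.29 lower in T2M and 3.38 lower in eosinophils than in macrophages (adjusted p = 0.0117 and 0.00268), while neutrophils minus macrophages was -0.18 (adjusted p = 0.822). Of the decoy receptors, which take up chemokines without signalling, Ackr1 was 1.28 higher in T2M than in neutrophils (adjusted p = 0.0411), while Ackr2 and Ackr4 passed no test. Of 8 receptor and decoy genes measured, 2 were called higher and 1 lower in T2M than in macrophages, where 6.53% of all genes were higher and 10.6% lower, with a median of 0.41 against 0.18 for all genes. Against neutrophils 2 were higher and 1 lower, where 1.25% and 1.57% of all genes were. Against eosinophils 1 was higher and 1 lower, where 1.57% and 2.89% of all genes were.

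**Figure D5:**
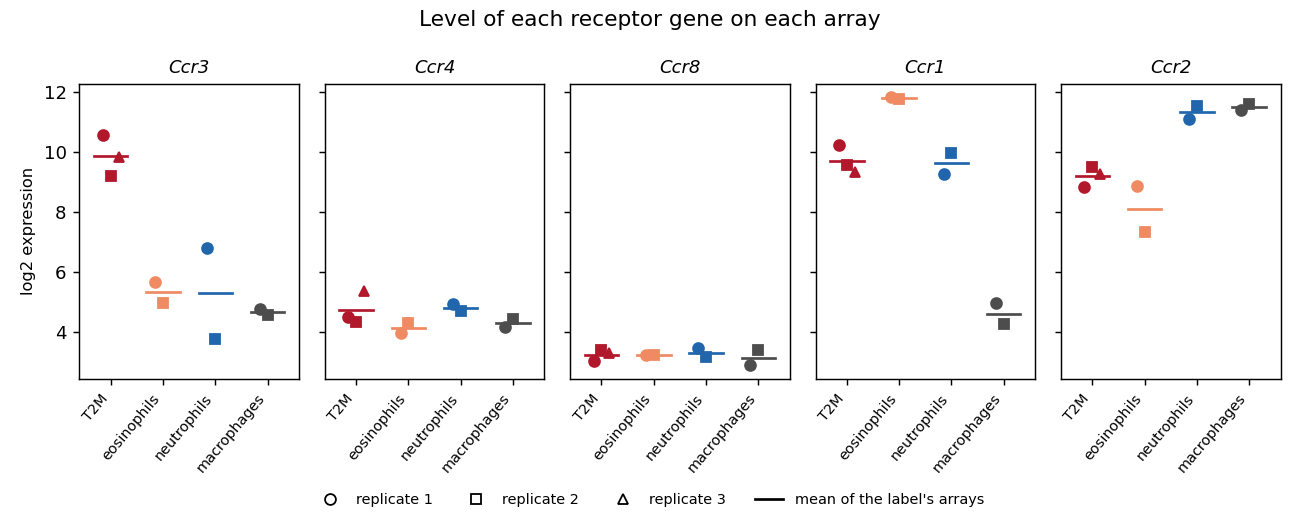
log2 expression of the genes for the eotaxin receptor Ccr3, the CCL17 and CCL22 receptor Ccr4, the CCL8 receptor Ccr8 and the receptors Ccr1 and Ccr2 on each array, by label, with a line at the mean of each label. Ccr3 is highest on T2M-labelled arrays, Ccr1 is lowest and Ccr2 high on macrophage-labelled arrays, and Ccr4 and Ccr8 lie low on every array.

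Genes of the IL-4 and IL-13 pathway that acts on these chemokines were mixed. Il4ra, the shared receptor chain, and Stat6 passed no test, with T2M means of 8.14 and 10.49 and macrophage means of 8.02 and 10.77. Irf4, a transcription factor downstream of IL-4, was 1.40 lower in T2M than in neutrophils (adjusted p = 0.0337) and 2.34 lower in eosinophils than in neutrophils. It was also 1.82 lower in eosinophils than in macrophages (adjusted p = 0.00432), and T2M minus macrophages was -0.88 (adjusted p = 0.0513). The part of Irf4 in the chemokine values was not tested. Socs3, a feedback inhibitor of cytokine signalling, was 2.98 higher in T2M, 3.59 in eosinophils and 3.13 in neutrophils than in macrophages. Il4, whose reporter was part of the T2M gate, was 3.38 higher in T2M than in eosinophils and 3.79 higher than in macrophages. Of 13 measured genes of the pathway, T2M against macrophages had 4 calls upward and 1 downward, T2M against neutrophils 1 each way, and T2M against eosinophils 1 upward and 2 downward. Among all genes 6.53% were called upward and 10.6% downward against macrophages, 1.25% and 1.57% against neutrophils, and 1.57% and 2.89% against eosinophils.

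Of 19 IL-4-responsive macrophage genes, 10 were called higher and 2 lower in T2M than in macrophages, with a median of 1.94 against 0.18 for all genes. Among all genes 6.53% were higher and 10.6% lower there. In eosinophils 9 were higher and 2 lower than in macrophages, against 5.89% and 11.5% of all genes. In neutrophils 8 were higher and none lower, against 1.13% of all genes each way. Like Ccl8, Arg1, which degrades arginine, was 5.56, 4.49 and 6.54 above macrophages in T2M, eosinophils and neutrophils, and Alox15, a lipoxygenase, 7.72, 4.74 and 6.60. The lectin genes Clec10a (-1.75) and Mgl2 (-2.42) were lower in T2M than in macrophages, as Ccl24 was by value (-1.72). Between T2M and neutrophils none of the 19 was called (limma), where 2.82% of all genes were. An unadjusted p under 0.05 was found for 6 of the 19 and for 2955 of 18193 genes.

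Beside these results, the marker lists moved between labels as well. In T2M minus macrophages, 7 of 7 eosinophil, 4 of 10 neutrophil and 3 of 12 macrophage and monocyte markers were higher, 3 of the last list were lower, and of 12 dendritic cell markers 1 was higher and 4 lower. Among all genes 6.53% were higher and 10.6% lower in that comparison. The mean log2 level of the macrophage and monocyte list ran from 9.25 to 9.85 on T2M-, 8.82 to 8.90 on eosinophil-, 10.64 to 10.79 on neutrophil- and 9.42 to 9.52 on macrophage-labelled arrays. That of the dendritic cell list ran from 7.27 to 7.52, 6.26 to 6.72, 7.50 to 8.11 and 8.59 to 8.77 in the same order of labels. Of alveolar macrophage markers 5 of 7, and of epithelial markers 3 of 7, were also called higher in T2M than in macrophages, with mean log2 levels of 9.28 to 10.42 and 8.08 to 9.17 on T2M-, against 6.54 to 6.69 and 6.54 to 6.76 on macrophage-labelled arrays. No marker can be given as absent, because the log2 values have no detection calls, and the part of other cell types in the chemokine values was not tested.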

How the data were processed

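Each of 9 mouse arrays was hybridised with amplified RNA of 1 sorted population. The deposited values are log2 expression per probe set, and RMA, affy and limma are named in the submitters' processing notes, without versions. The normalization between arrays is not given in the sources used here. Of 45101 probe sets, 64 controls were left out of the tests. Probe sets were named from the platform annotation, updated through RefSeq gene IDs (0 symbols changed), and per gene the probe set with the highest mean was kept. Labels were compared with limma 3.58.1 in R 4.3.3 (group means of all 9 arrays, eBayes, two-sided, 5 residual degrees of freedom), which was first tested on simulated data. Precision is limited by the few arrays per label: the median SE of a log2 difference was 0.308 with T2M and 0.337 without. Labels give separate pools per replicate, and p-values measure the spread between these where that holds. For the pair of macrophage-labelled arrays it cannot be told from the values. If that pair shares RNA, part of the spread in the tests is technical.

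The 5 chemokines, the lists and the naming rule (all chemokines, receptors and cluster neighbours, the 3 most alike genes and the largest differences of each list) were chosen with earlier results of these data known. The promoter motifs were chosen after the values were seen. Ccl26 and Il2rg are not analysed here. A total of 13 other ways of processing and 9 fits without 1 array were tried. Whether the replicate numbers pair the samples cannot be told, and they served only as an alternative block. Deviations of same-numbered arrays from their label means correlated at -0.18 to 0.50. Between T2M and eosinophils, the values were 0.50 for replicate 1 and 0.44 for replicate 2. In a label of 2 arrays the deviations mirror each other, so this check cannot decide on pairing. Figures were drawn with matplotlib 3.10.9.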

Additional observations from a re-analysis of the deposited data

How the results depend on the processing

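Across 13 other ways of processing and 9 fits without 1 array, Ccl8 kept its 3 calls against macrophages throughout, and Ccl17 kept that of neutrophils against macrophages. The count of chemokines called in T2M minus neutrophils was 0 in place of 1 when every probe set was tested, with quantile scaling, no moderation, array weights, only the arrays of the 2 labels, a 2-fold minimum, the macrophage arrays as 1 sample or without both arrays with actin skew, and with the replicate number as a block, where 0 were called. In eosinophils minus neutrophils it was 0 when every probe set was tested, with median scaling, no moderation, array weights, a 2-fold minimum or the macrophage arrays as 1 sample, 2 with the mean of probe sets or with trend and robust moderation, and 3 with a filter on dim genes. It stayed 1, but with Ccl24 in place of Ccl17, under the block, and with Ccl22 in place of Ccl17 with only the arrays of the 2 labels or without both arrays with actin skew. Under the block, Ccl24 in T2M minus neutrophils was -3.14 (adjusted p = 0.0740). In T2M minus macrophages it was 5 with array weights and 3 without both arrays with actin skew, in place of 2. In eosinophils minus macrophages it was 1 with a 2-fold minimum or the macrophage arrays as 1 sample and 3 with only the arrays of the 2 labels, in place of 2. In neutrophils minus macrophages it was 3, in place of 2, with dim genes filtered, the mean of probe sets, trend and robust moderation, only the arrays of the 2 labels or without both arrays with actin skew. Calls over all 18193 genes moved too. In T2M minus neutrophils they fell from 513 to 0 with only the arrays of the 2 labels. They fell to 41 with no moderation, 43 under the block and 53 with array weights. A count of 0 chemokines under these settings is thus not particular to them. In T2M minus macrophages, array weights raised the calls over all genes from 3123 to 10163, so the 5 there are not particular either. The causes were not tested. The block changed no other call of the 5 chemokines.

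Leaving out 1 array gave counts of 0 to 1 in T2M minus eosinophils, 0 to 2 in T2M minus neutrophils, 1 to 3 in T2M minus macrophages, 0 to 3 in eosinophils minus neutrophils, 1 to 2 in eosinophils minus macrophages and 2 to 4 in neutrophils minus macrophages. Median scaling moved the median of all genes by -0.15 in T2M minus eosinophils and by 0.15 in eosinophils minus neutrophils, and quantile scaling moved it by -0.13 to -0.15 in the 3 comparisons with macrophages. No called difference of the 5 chemokines changed sign. Uncalled differences did so for Ccl11 and Ccl8 in T2M minus neutrophils, Ccl24 and Ccl17 in T2M minus eosinophils, and Ccl11 in eosinophils minus neutrophils, which was -0.99 and turned to 0.28 without neutrophil replicate 1. In T2M minus eosinophils, lower genes were 64.8% of all calls and 75.8% after median scaling.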

Other observations

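Of 9 other CC chemokine genes measured, the macrophage inflammatory proteins Ccl3 and Ccl4 were highest by mean on eosinophil-labelled arrays. Ccl3 averaged 12.35 on T2M-, 12.94 on eosinophil-, 10.80 on neutrophil- and 8.87 on macrophage-labelled arrays. It was 3.48 higher in T2M and 4.07 higher in eosinophils than in macrophages on the log2 scale (limma, adjusted p = 0.00374 and 0.00214), and 2.14 higher in eosinophils than in neutrophils (adjusted p = 0.0494). Ccl4 had the same calls, with 2.62, 4.53 and 2.30 (adjusted p = 0.0132, 0.00168 and 0.0451). Ccl17 and Ccl24, by contrast, were highest by mean on neutrophil-labelled arrays.

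Ccl6 was 0.94 higher in T2M than in eosinophils and 1.30 higher than in macrophages (adjusted p = 0.0444 and 0.00581), and Ccl9 was 1.30 higher in T2M than in eosinophils (adjusted p = 0.0222). Ccl9 was also lower in eosinophils than in neutrophils (-1.48) and macrophages (-0.92). Ccl5, known from T cells and dendritic cells, passed no test, with means of 8.46, 9.05, 9.69 and 10.11 in T2M, eosinophils, neutrophils and macrophages. Of the 9 genes, 3 were called higher in T2M than in macrophages, 2 higher in T2M than in eosinophils, and 2 higher and 1 lower in eosinophils than in neutrophils. The shares of all genes were, in the same order, 6.53%, 1.57%, 3.55% and 4.33%.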
